A study of Homo sapiens with 12 samples.

Results

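The genes described here are 10 cadherin-superfamily and desmosomal adhesion genes, CDH1, CDH2, CDH4, CDH6, CDH11, CDH13, DSC2, DSC3, DSG2 and JUP, out of 60419 genes with a symbol in the count table. They were matched by symbol through the Ensembl gene identifiers with the version dropped, all 10 were found, and all 10 passed the filter on low counts. The members were selected partly on large differences between these same groups, so their own differences are given as a description and support nothing. RNA was measured by paired-end sequencing in 12 libraries from cells labelled HS578T, a breast cancer line with mesenchymal features. The study asked what doxorubicin, an anthracycline that damages DNA through topoisomerase II, does to expression with and without loss of 17p, the short arm of chromosome 17. Cells labelled 17p-deleted (titles 17PKO, genotype label of a knockout of a single copy of 17p) received 1 µM doxorubicin in 3 libraries and the vehicle DMSO in 3 libraries. Cells labelled 17p-intact (titles cas9, genotype label WT) received 170 nM doxorubicin in 3 libraries and DMSO in 3 libraries. Every library was taken at 48 h. Genotype and dose, which differed 5.88-fold between the treated groups, cannot be told apart where treated groups are compared or where the doxorubicin effects are subtracted. The labels do not say whether the deleted cells are a clone or a pool, so any other difference between the populations goes with the genotype label.

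Cadherins are calcium-dependent adhesion proteins that bind like molecules on the neighbouring cell and hold the actin cytoskeleton through beta-catenin, alpha-catenin and vinculin. Desmosomes are the related junctions of epithelia and heart muscle, in which desmogleins and desmocollins span the membrane and plakoglobin, plakophilins and desmoplakin tie them to intermediate filaments. Epithelial cells rely on E-cadherin (CDH1), which the repressors SNAI1, SNAI2, ZEB1 and ZEB2 silence through E-boxes, and mesenchymal breast cancer lines carry N-cadherin (CDH2) and cadherin-11 in its place.

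Of the 10 members 6 had an entry among the RefSeq promoters (GRCh38.p14), with 10 windows of 300 bases in all, from 250 bases before to 50 bases after a start site. CDH1, CDH6, CDH11 and CDH13 had none. The windows below belong to the desmosomal members, whose RNA differed in opposite directions, and each is given 5′ to 3′ on the strand of its gene. In DSC3, chr18:31042693-31042992 on the minus strand, the capitals mark a match to the p53 half-site at position -57 from the start site. That motif was searched on both strands after the sequences and the values of DSC3 had been seen. In DSC2 (chr18:31102372-31102671, minus strand), DSG2 (chr18:31497927-31498226, plus strand) and JUP (chr17:41785927-41786226, minus strand) the capitals mark the E-box CAGGTG or its reverse complement.
DSC3: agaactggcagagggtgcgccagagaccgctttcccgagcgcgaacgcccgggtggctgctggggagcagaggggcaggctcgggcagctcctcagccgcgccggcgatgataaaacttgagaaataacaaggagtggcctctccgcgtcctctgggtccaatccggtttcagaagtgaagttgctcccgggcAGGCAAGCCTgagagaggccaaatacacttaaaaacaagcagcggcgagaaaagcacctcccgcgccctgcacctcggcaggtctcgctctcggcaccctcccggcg
DSC2: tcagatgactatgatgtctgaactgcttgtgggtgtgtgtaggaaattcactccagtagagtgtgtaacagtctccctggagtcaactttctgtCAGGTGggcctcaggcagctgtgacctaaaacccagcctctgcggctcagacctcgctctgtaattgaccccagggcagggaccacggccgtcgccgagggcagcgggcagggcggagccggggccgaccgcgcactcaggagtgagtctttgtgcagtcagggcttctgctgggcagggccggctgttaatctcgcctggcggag
DSG2: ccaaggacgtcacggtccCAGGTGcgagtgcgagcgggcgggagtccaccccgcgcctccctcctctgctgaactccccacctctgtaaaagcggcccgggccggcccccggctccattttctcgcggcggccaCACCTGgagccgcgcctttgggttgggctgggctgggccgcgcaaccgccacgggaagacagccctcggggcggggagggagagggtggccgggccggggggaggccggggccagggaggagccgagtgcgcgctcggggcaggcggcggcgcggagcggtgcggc
JUP: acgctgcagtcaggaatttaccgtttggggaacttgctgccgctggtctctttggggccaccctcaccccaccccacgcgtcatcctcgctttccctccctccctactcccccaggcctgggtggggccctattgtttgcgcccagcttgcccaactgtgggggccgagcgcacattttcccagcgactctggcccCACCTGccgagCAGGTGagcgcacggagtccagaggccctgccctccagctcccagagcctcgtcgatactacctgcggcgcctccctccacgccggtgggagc
The E-box was present in 4 of the 10 windows, those 3 and 1 of CDH4 at position -16, against 20.59% of 35116 RefSeq promoters of the same length. DSG2 held it at -232 and -116 and JUP at -54 and -43, and 3.494% of all promoters held it at least 2 times. DSC2, JUP and CDH4 each had a further window, at chr18:31101211-31101510, chr17:41786662-41786961 and chr20:61599511-61599810, and none of these held the E-box. The p53 half-site was present in 1 of the 10 windows, that of DSC3, against 6.632% of all promoters. These are matches of letters within short windows, and no binding was measured.

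Total counts ran from 66150539 to 99142099 per library, so that 3 counts, the floor for a gene at 0, equal 0.0303 to 0.0454 CPM (counts of a gene scaled to a common library size). Mitochondrial genes took 6.90% of counts in replicate 2 of deleted DMSO cells and 5.54% in replicate 1 of intact treated cells, against 2.61% to 3.57% elsewhere. In DMSO, POLR2A, a gene on 17p, averaged 602 CPM in cells labelled deleted and 482 CPM in cells labelled intact, a log2 difference of 0.32 (SE 0.16) that did not pass (edgeR adjusted p = 0.150), so this gene did not show the labelled loss. A check of cell identity did not match the labelled line in 12 of 12 libraries, and the cells are therefore named only by their labels. The mesenchymal markers summed to 3511 to 3555 CPM in deleted treated, 5426 to 5812 CPM in deleted DMSO, 6872 to 7103 CPM in intact treated and 7976 to 8421 CPM in intact DMSO libraries, led by FN1 in deleted treated cells and by VIM in the others. That sum was lowest in the group where CDH2, CDH4 and CDH13 were lowest and where DSC3, DSG2 and JUP were highest. CDH4 was highest in deleted DMSO cells, whereas the sum was highest in intact DMSO cells. The part of the sum in those values was not tested. The epithelial markers summed to 579 to 582, 489 to 643, 425 to 600 and 518 to 539 CPM in the same groups, nearly all of it KRT8 and KRT18. Nearly all of the mesenchymal sum was VIM, FN1, COL1A1 and SPARC. COL1A2, COL3A1, LUM and DCN of that list were at or below 1.60 CPM in every group mean. In DMSO, THY1 was higher in deleted than in intact cells, at 73.7 against 46.7 CPM, whereas VIM, FN1, COL1A1, SPARC and PDGFRB were lower. Each of the marker lists for endothelium, blood, pigment cells and muscle, taken alone, summed to at most 6.09 CPM in any library, with PTPRC at or below 0.760 CPM. In bulk RNA, fewer cells with a transcript and less of it per cell cannot be told apart. Nothing in the labels says that replicates were grown separately, so the p-values measure the spread between these libraries, which may be technical.

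Per length of exon, N-cadherin and desmoglein 2 were the most abundant members in all 4 groups. In deleted treated cells DSG2 came first at 48.0 ± 2.42 CPM per kb, CDH2 next at 34.6 ± 0.774 and JUP after it at 12.2 ± 0.395 (SD, n = 3). In deleted DMSO cells the order was CDH2 at 68.5 ± 13.6, DSG2 at 40.7 ± 4.63 and CDH4 at 15.3 ± 2.28 CPM per kb. Intact treated cells had CDH2 at 72.0 ± 12.4, DSG2 at 30.7 ± 4.86 and JUP at 8.46 ± 0.728 CPM per kb. In intact DMSO cells CDH2 stood at 74.0 ± 2.27, DSG2 at 29.3 ± 1.18 and CDH4 at 7.49 ± 0.204 CPM per kb. There, CDH13 at 5.88 and JUP at 5.72 CPM per kb were neighbours whose libraries overlapped. CDH1 was at or below 0.0542 CPM per kb in every group's mean.

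CDH2 encodes N-cadherin, the type I cadherin of neural and mesenchymal cells, and lies on chr18:27950966-28177446 (hg38). Its RNA was lower in treated deleted cells than in the other groups. The libraries held 167, 172 and 175 CPM in treated and 311, 416 and 290 CPM in DMSO-treated deleted cells. Intact cells held 407, 288 and 373 CPM in doxorubicin and 378, 364 and 356 CPM in DMSO. All 3 treated deleted libraries were below every other library, while the remaining 3 groups overlapped. The log2 fold change in deleted cells was -0.99 (SE 0.14, 95% interval -1.29 to -0.69), against -0.04 (SE 0.14, -0.34 to 0.26) in intact cells. Replicate 2 of the deleted DMSO cells, at 416 CPM, is the library with the highest mitochondrial share. Without it and replicate 1 of treated intact cells, the difference between deleted and intact cells in DMSO was -0.32 and passed the threshold, against -0.11 with all libraries.

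CDH4, R-cadherin, is another type I cadherin, named for the retina, and lies on chr20:61252426-61940617. It was the member whose order between the genotypes turned round with treatment. Deleted cells had 15.5, 15.5 and 17.6 CPM in doxorubicin and 128, 94.6 and 116 CPM in DMSO. Intact cells had 32.0, 37.2 and 35.5 CPM in doxorubicin and 53.4, 56.3 and 55.4 CPM in DMSO. The 4 groups did not overlap. Deleted cells were 2.05-fold higher than intact cells in DMSO (log2 1.03, SE 0.11) and 2.16-fold lower in doxorubicin (log2 -1.11, SE 0.11). Doxorubicin went with a 6.97-fold lower level in deleted cells (log2 -2.80, SE 0.12) and a 1.58-fold lower level in intact cells (log2 -0.66, SE 0.11).

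CDH6 and CDH11 are type II cadherins, known from kidney and from bone and stroma, and both were far lower in cells labelled deleted. CDH6 (chr5:31193750-31329146) had 0.102, 0.167 and 0.212 CPM in treated and 0.607, 0.652 and 0.455 CPM in DMSO-treated deleted cells. In intact cells it had 10.0, 8.15 and 9.63 CPM in doxorubicin and 14.1, 13.6 and 14.5 CPM in DMSO. Every deleted library was below every intact one, and in each genotype the treated libraries were below the DMSO libraries. The deleted DMSO libraries summed to 125 counts against 3355 in intact DMSO libraries, a depth-scaled ratio of 24.9-fold lower (95% interval for counting error 20.8 to 30.0). In doxorubicin the sums were 44 and 2355, which gave 56.5-fold lower (42.0 to 78.0). Other genes overlap 9.97% of its exon length, so its lowest counts are uncertain.

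CDH11 (chr16:64943753-65126112) was close to the floor in deleted cells. The treated libraries held 0, 4 and 2 counts and the DMSO libraries 1, 12 and 4, and a count of 0 in replicate 1 of the treated cells allows up to 0.0392 CPM. Intact cells had 12.02, 8.56 and 10.9 CPM in doxorubicin and 11.2, 10.3 and 10.9 CPM in DMSO, groups that overlapped. The sums were 17 counts in deleted and 2567 in intact DMSO cells, 140-fold lower per depth (87.3 to 241). In doxorubicin they were 6 and 2668, 469-fold lower (215 to 1280). At this depth a difference between treated and DMSO-treated deleted cells rests on 6 and 17 counts, and its log2 value ran from -0.58 to -2.58 over the settings tried.

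CDH13, T-cadherin, is anchored by a lipid instead of a cytoplasmic tail and is known from vessels and heart. Its libraries on chr16:82626803-83800640 held 22.8, 17.7 and 19.3 CPM in treated deleted cells and 35.7, 37.7 and 37.2 CPM in DMSO. In intact cells they held 58.5, 57.8 and 63.8 CPM in doxorubicin and 66.1, 66.2 and 65.0 CPM in DMSO. The 4 groups formed 4 separate steps. The log2 fold change with doxorubicin was -0.89 (SE 0.10) in deleted cells and -0.13 (SE 0.10) in intact cells. The genotype difference was -1.59 (SE 0.10) in doxorubicin and -0.83 (SE 0.10) in DMSO.

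CDH1 was barely detected, with 14, 12 and 12 counts in treated and 0, 2 and 8 counts in DMSO-treated deleted libraries. Intact cells had 34, 17 and 34 counts in doxorubicin and 7, 20 and 20 counts in DMSO. All 12 libraries were at or below 0.441 CPM. Its lower value in deleted DMSO cells (log2 -2.11, SE 0.76) passed by edgeR in the fit of all libraries but failed under 11 of the settings tried, so that no firm difference was detectable at this depth. CDH1 lies on chr16:68737225-68835548, and its exons overlap an antisense gene over 5.62% of their length.

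**Figure D1:**
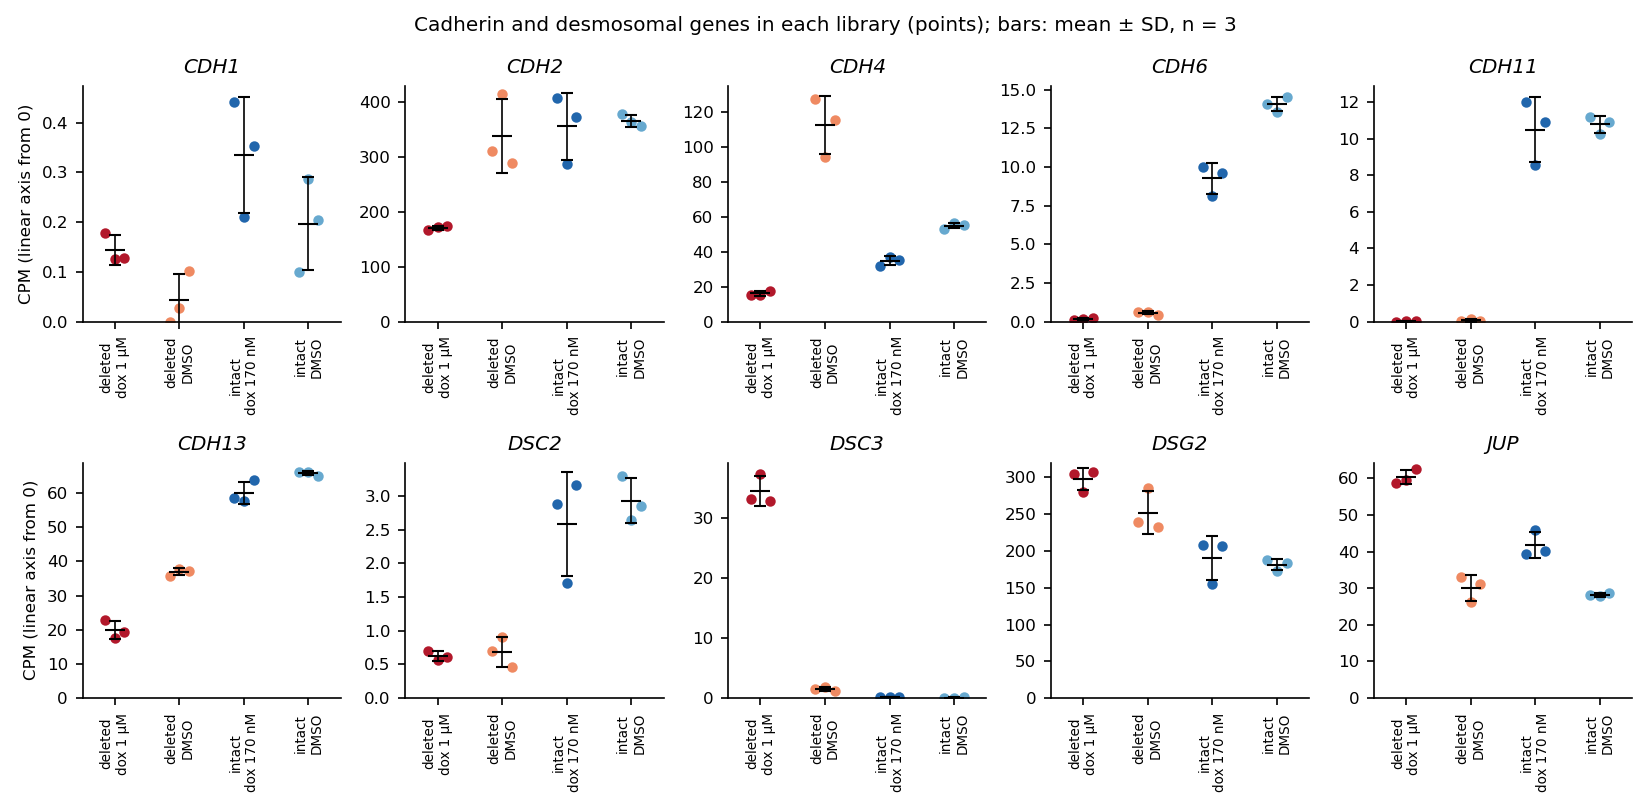
CPM of the 10 genes in each library (vertical axis, linear from 0, 1 panel per gene), with groups in the order deleted doxorubicin 1 µM, deleted DMSO, intact doxorubicin 170 nM and intact DMSO, named as labelled; points are libraries and bars are the mean ± SD of 3, drawn only above 0. CDH6 and CDH11 sit near 0 in both deleted groups, DSC3 reaches 32.9 to 37.4 CPM in treated deleted cells alone, and CDH4 is highest in deleted DMSO cells.

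The desmosomal cadherins of chromosome 18 differed among themselves. DSC3 (chr18:30990008-31042815) and DSC2 (chr18:31058840-31102522) are neighbouring desmocollin genes on the same strand, 16024 bases apart, and DSG2 (chr18:31498043-31549008) lies 395.5 kb beyond on the other strand. DSC3, best known from the basal layers of stratified epithelia, had 33.3, 37.4 and 32.9 CPM in treated and 1.47, 1.79 and 1.23 CPM in DMSO-treated deleted cells. Intact cells had 0.182, 0.124 and 0.187 CPM in doxorubicin and 0.0574, 0.0287 and 0.122 CPM in DMSO. The 4 groups did not overlap, and intact DMSO libraries held 4, 2 and 12 counts. Summed counts were 9285 in treated and 328 in DMSO-treated deleted cells, a depth-scaled ratio of 23.3 (95% interval for counting error 20.8 to 26.1). Deleted over intact cells gave 19.7 (12.2 to 33.6) in DMSO and 209 (155 to 291) in doxorubicin. In intact cells 42 counts in doxorubicin against 18 in DMSO gave 2.18 (1.23 to 4.03). The promoter window of this gene is the one printed with a p53 half-site. That motif was searched after these values had been seen, and its part in them was not tested.

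DSC2, the broadly expressed desmocollin, went the other way between the genotypes. It had 0.704, 0.565 and 0.614 CPM in treated and 0.696, 0.909 and 0.455 CPM in DMSO-treated deleted cells. Intact cells had 2.88, 1.71 and 3.16 CPM in doxorubicin and 3.30, 2.65 and 2.85 CPM in DMSO. All deleted libraries were below all intact libraries, while treated and DMSO libraries of a genotype overlapped. The genotype log2 difference was -2.04 (SE 0.27) in doxorubicin and -2.10 (SE 0.28) in DMSO, and the doxorubicin difference was -0.13 (95% interval -0.74 to 0.49) in deleted cells. Per kb, treated deleted cells had 4.90 CPM of DSC3 and 0.0502 CPM of DSC2, whereas intact DMSO cells had 0.00983 CPM of DSC3 and 0.235 CPM of DSC2. Of this pair of desmocollins, DSC3 was the more abundant per kb in deleted cells and DSC2 in intact cells.

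DSG2, the desmoglein found in simple epithelia and heart, with 2.76% of its exon length overlapped by an antisense gene, was the abundant desmosomal cadherin of every group. It had 304, 280 and 308 CPM in treated and 240, 285 and 232 CPM in DMSO-treated deleted cells. Intact cells had 207, 155 and 207 CPM in doxorubicin and 187, 173 and 183 CPM in DMSO. Every deleted library was above every intact one. The genotype log2 difference was 0.65 (SE 0.12) in doxorubicin and 0.48 (SE 0.12) in DMSO. Treated and DMSO libraries overlapped in both genotypes, with a log2 difference of 0.24 (95% interval -0.01 to 0.49) in deleted cells and 0.07 (-0.18 to 0.32) in intact cells. Without the 2 libraries of high mitochondrial share the difference in deleted cells was 0.32 and was called, as it was in 3 other settings.

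JUP encodes plakoglobin, the armadillo protein that sits under both desmosomal and classical cadherins. It lies on the long arm of chromosome 17 (chr17:41754604-41786931) and not on 17p. Deleted cells had 58.9, 59.6 and 62.5 CPM in doxorubicin and 33.1, 26.2 and 31.2 CPM in DMSO. Intact cells had 39.3, 45.9 and 40.1 CPM in doxorubicin and 28.2, 27.8 and 28.8 CPM in DMSO. Treated libraries were above DMSO libraries in each genotype, and the DMSO groups overlapped. The log2 fold change with doxorubicin was 1.00 (SE 0.10, 95% interval 0.78 to 1.22) in deleted and 0.56 (SE 0.10, 0.35 to 0.78) in intact cells, at the different doses.

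A gene was called when its Benjamini-Hochberg adjusted p over all 21803 genes tested by edgeR was under 0.05. In doxorubicin 3 of 10 members were called higher and 6 lower in deleted than in intact cells, while 25.9% of all genes tested were called higher and 21.9% lower. In DMSO it was 3 higher and 5 lower, with 18.8% and 16.2% of all genes. With 1 µM doxorubicin in deleted cells it was 2 higher and 4 lower, with 17.5% and 13.1% of all genes. With 170 nM in intact cells 0 members were called, with 0.0275% of all genes higher and 0.0321% lower. There 4 members had an unadjusted p under 0.05, limma-voom called 1 member and DESeq2 called 3, and 13 genes in all were called by edgeR, 467 by DESeq2 and 2504 had an unadjusted p under 0.05. CDH4 (lower) and JUP (higher) were the members called there without the 2 libraries of high mitochondrial share. Of those 13 genes 46.2% were higher, against 14.6% of 48 when library totals set the scale and 72.2% of 406 once the GC trend was removed. For the difference of the doxorubicin effects 1 member was called higher and 4 lower, with 10.3% and 6.74% of all genes. Of all calls there 60.3% were higher, against 71.3% with library totals and 45.8% with the GC trend removed. These member counts follow from how the members were chosen, and the comparisons share their libraries.

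**Figure D2:**
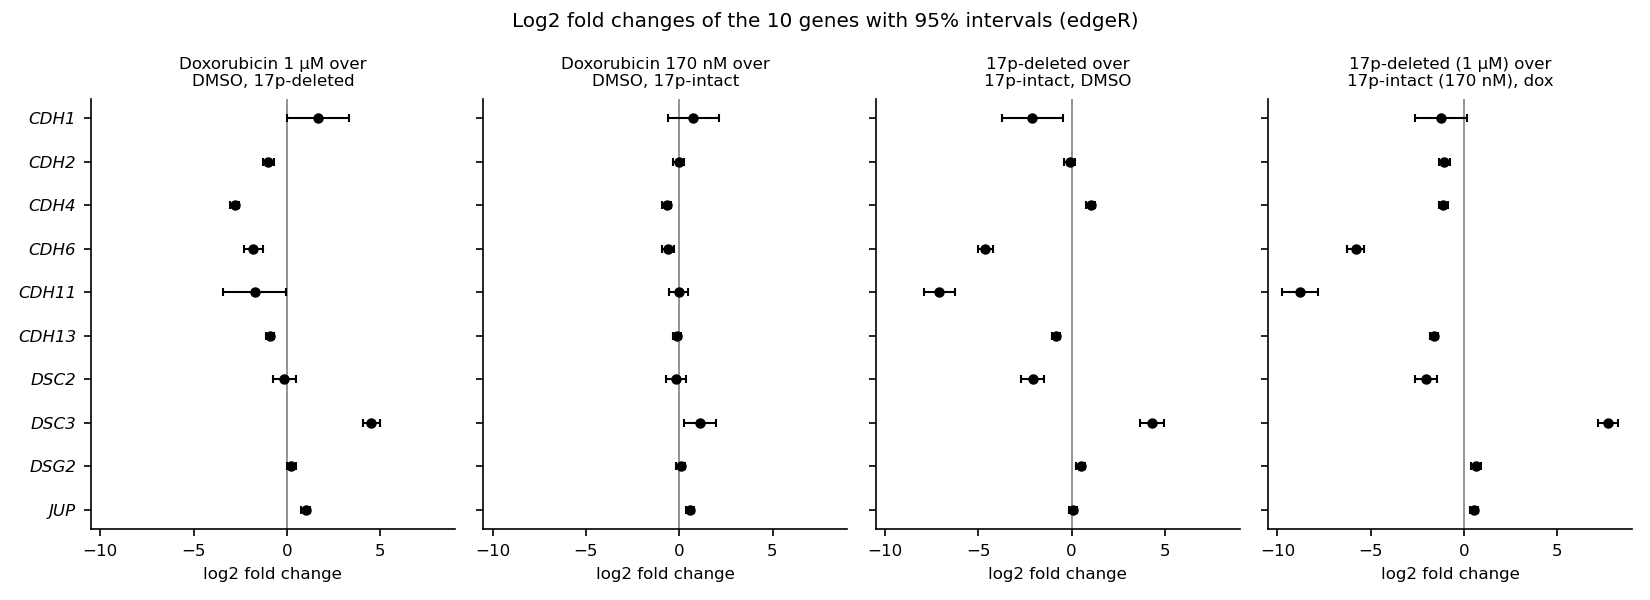
Log2 fold changes (horizontal axis) of the 10 genes from edgeR, with 95% intervals, in 4 comparisons: doxorubicin over DMSO in cells labelled deleted and intact, and deleted over intact in DMSO and in doxorubicin. The widest ranges are in the genotype panels, from -8.78 for CDH11 to 7.70 for DSC3 in doxorubicin, and those of genes near 0 counts depend on the prior count of the fit.

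The members lie on 5 chromosomes, and genes of the same arms also differed between the labelled genotypes in DMSO. The median log2 difference of deleted over intact cells was -0.44 on 5p (191 genes, home of CDH6), -0.41 on 16q (445 genes, home of CDH1, CDH11 and CDH13) and -0.24 on 17q (974 genes, home of JUP). It was 0.32 on 18q (200 genes, home of CDH2, the desmocollins and DSG2) and 0.22 on 20q (389 genes, home of CDH4), against medians of 0.03 to 0.05 over the genes elsewhere. CDH1, CDH4, CDH6, CDH11, CDH13, DSC3 and DSG2 had the sign of their arm, as with CDH13 at -0.83 and DSG2 at 0.48. CDH2 at -0.11, DSC2 at -2.10 and JUP at 0.09 did not, and the part of arm-wide shifts in these values was not tested.

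The genes whose log2 level followed a member most closely over the 12 libraries were picked on the log2(CPM + 1) scale from 11442 named genes with at least 5 CPM in a group, as a description. They were FIGN for CDH2 (Pearson r 0.993), SMAD6 for CDH4 (0.984), TSPAN13 for CDH6 (0.997), KLHL4 for CDH11 (0.999) and NRXN3 for CDH13 (0.995). They were L3MBTL2-AS1, an antisense gene whose count is uncertain without strand, for DSC3 (0.998), SP4 for DSG2 (0.990) and FLOT2 for JUP (0.974). KLHL4 averaged 0.0607 and 0.153 CPM in treated and DMSO-treated deleted cells, and 6.77 and 7.15 CPM in treated and DMSO-treated intact cells. SMAD6 averaged 9.20 and 44.5 CPM in the deleted groups and 14.4 and 20.9 CPM in the intact groups, in the same order. Such likeness over 12 libraries reflects mainly the 4 group levels that the libraries share. CDH1 and DSC2 did not reach 5 CPM in any group and were not compared.

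Cadherin RNA was summed over the 23 genes with CDH symbols after division by exon length. DSC2, DSC3, DSG2 and the FAT, Dachsous, Flamingo and protocadherin genes were not in that sum. It was 74.4 ± 1.89 CPM per kb in treated and 100.2 ± 11.96 in DMSO-treated deleted cells (SD, n = 3). In intact cells it was 102.2 ± 11.9 in treated and 110 ± 2.10 in DMSO-treated libraries. CDH2 made up 46.5% ± 1.11 of it in treated deleted cells, against 67.9% ± 5.23 in deleted DMSO, 70.1% ± 4.11 in intact treated and 67.4% ± 0.830 in intact DMSO cells. CDH4 made up 2.95%, 15.6%, 4.72% and 6.83% in those groups, and CDH13 2.40%, 3.32%, 5.29% and 5.36%. The remainder in treated deleted cells was mostly CDH10, a neural type II cadherin that is not a member, at 27.0% against 4.96% to 8.37% in the other groups. CDH24, another type II cadherin, took 20.4% there against 7.42% to 9.12%. Treated deleted cells thus had less RNA per kb of these 23 genes, and the CDH2 share was lower in each of their libraries than in any other library. Outside the sum, DSG2 and DSC3 had their highest mean in treated deleted cells and DSC2 its lowest. DSG2 stood at 48.0 CPM per kb there, against 40.7 in deleted DMSO, 30.7 in intact treated and 29.3 in intact DMSO cells.

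**Figure D3:**
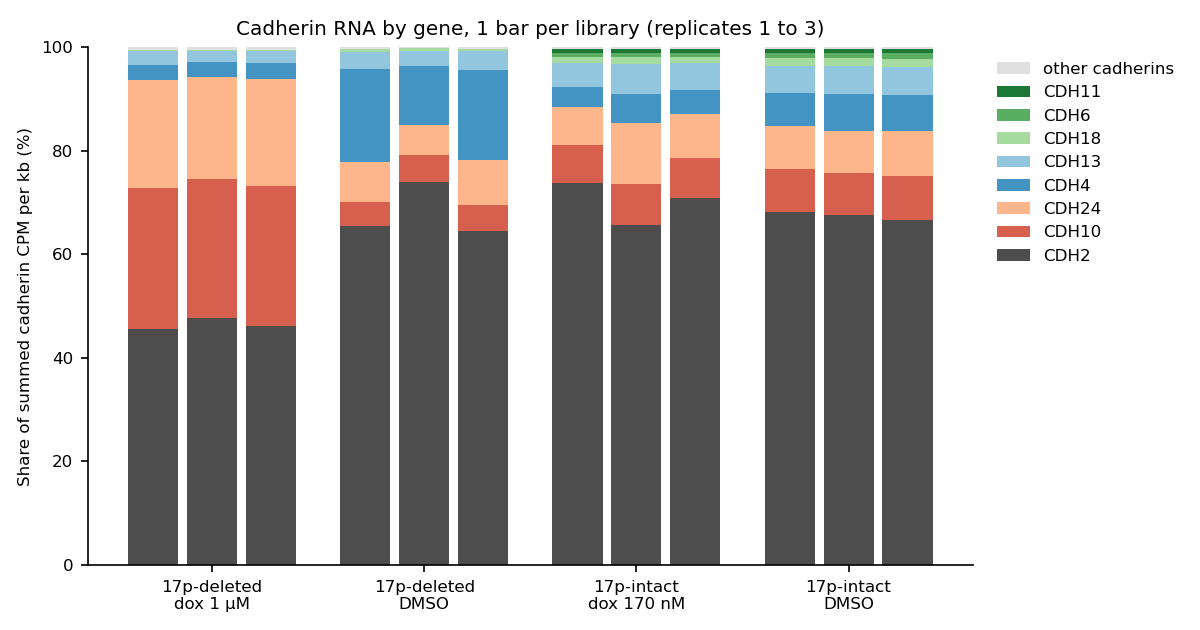
Share of each cadherin in the CPM per kb summed over 23 genes with CDH symbols (vertical axis, percent), without desmosomal cadherins. Each library is 1 stacked bar, with the groups named as labelled and ordered deleted doxorubicin, deleted DMSO, intact doxorubicin and intact DMSO. CDH2 takes 45.6% to 47.7% in treated deleted cells and 64.5% to 73.9% in the other libraries, while CDH10 and CDH24 together fill most of the rest in treated deleted cells.

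Genes that work with the members were taken from lists of 99 further genes, of which 77 passed the filter on low counts, and are tested by edgeR with adjustment over all genes. Among other desmosome genes, 8 of 11 were tested (DSC1, DSG1 and DSG4 were not). With 1 µM doxorubicin in deleted cells 4 rose and 1 fell, with a median log2 fold change of 1.21 against -0.02 over all genes. Of all genes tested 17.5% rose and 13.1% fell there. DSP, which encodes desmoplakin, the linker to intermediate filaments, rose to 241 ± 13.9 CPM in treated deleted cells, against 98.5 ± 18.3 in DMSO (log2 1.29, SE 0.15, adjusted p = 1.71e-05). PERP, a tetraspan desmosome protein known as a p53 target, rose to 220 ± 7.74 CPM, against 100.99 ± 22.3 in DMSO (log2 1.12, SE 0.15, adjusted p = 4.77e-05). DSG3, the desmoglein paired with DSC3 in basal epithelium, rose to 1.88 CPM, against 0.228 CPM in DMSO (log2 3.04, SE 0.30, adjusted p = 3.60e-06). PPL, the plakin periplakin, rose to 10.5 CPM, against 1.90 CPM (log2 2.46, SE 0.30, adjusted p = 2.42e-05). PKP2, a plakophilin, fell to 26.5 CPM, against 39.1 CPM (log2 -0.56, SE 0.10, adjusted p = 5.57e-04). PKP3 had 13.1 CPM in treated and 18.1 CPM in DMSO cells and did not pass (adjusted p = 0.259), though it did without the 2 libraries of high mitochondrial share.

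Between the labelled genotypes in DMSO 4 of these 8 genes were higher in deleted cells and the other 4 did not pass, with a median log2 difference of 0.64 against 0.04 over all genes, led by PKP2 at 39.1 against 23.3 CPM (log2 0.74, SE 0.10, adjusted p = 5.61e-05) and PPL (log2 2.35, SE 0.34, adjusted p = 1.22e-04). In doxorubicin 6 were higher and the other 2 did not pass, and without the 2 libraries of high mitochondrial share 5 were higher and 1 lower. Of all genes tested 18.8% were higher and 16.2% lower in DMSO, and 25.9% and 21.9% in doxorubicin. In intact cells DSP averaged 87.6 CPM with 170 nM doxorubicin and 63.4 CPM in DMSO and did not pass (adjusted p = 0.250). PERP averaged 74.4 CPM in treated and 64.7 CPM in DMSO cells there (adjusted p = 0.623). The doxorubicin effect differed between the labelled genotypes for DSP (log2 0.82, SE 0.21, adjusted p = 0.0147), PERP (log2 0.92, SE 0.20, adjusted p = 6.39e-03), DSG3 (log2 3.02, SE 0.45, adjusted p = 3.61e-04) and PPL (log2 2.16, SE 0.47, adjusted p = 5.77e-03), all larger in deleted cells at their higher dose. PKP2 differed the other way (log2 -0.63, SE 0.14, adjusted p = 5.63e-03).

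Of 17 other cadherins 8 were tested. With 1 µM doxorubicin in deleted cells 3 rose and 1 fell, while 17.5% of all genes tested rose and 13.1% fell. In DMSO 5 were lower in deleted than in intact cells and the other 3 did not pass, while 18.8% of all genes were higher and 16.2% lower. Of those 5, CDH24 lost its call under 8 settings. CDH5, with 29 summed counts in deleted and 90 in intact DMSO libraries, lost its call under 3. Without the 2 libraries of high mitochondrial share 4 were lower. CDH10 rose to 73.5 ± 2.23 CPM in treated deleted cells, against 18.2 ± 2.88 in DMSO (log2 2.01, SE 0.11, adjusted p = 2.08e-08), and averaged 28.7 and 33.6 CPM in treated and DMSO-treated intact cells. Its doxorubicin effect was larger in deleted cells by 2.24 on the log2 scale (SE 0.16, adjusted p = 4.74e-07). CDH24 rose to 56.9 ± 2.94 CPM, against 27.4 ± 2.55 (log2 1.05, SE 0.11, adjusted p = 5.54e-06). CDH18, a neural type II cadherin, fell to 0.462 CPM, against 2.10 CPM (log2 -2.18, SE 0.18, adjusted p = 8.52e-07), and stood at 5.99 and 8.16 CPM in treated and DMSO-treated intact cells. CDH23 also passed in deleted cells (log2 0.46, SE 0.16, adjusted p = 0.0487), but failed under 17 settings, among them the fit without the 2 libraries of high mitochondrial share.

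Of 18 catenin, nectin and plaque genes 16 were tested, and with 1 µM doxorubicin 3 rose and 2 fell in deleted cells. Of all genes tested 17.5% rose and 13.1% fell there. NECTIN4, an immunoglobulin-type adhesion protein of epithelia, rose to 112 ± 2.73 CPM, against 4.68 ± 0.203 CPM in DMSO (log2 4.58, SE 0.18, adjusted p = 1.30e-09). Intact cells had 1.04 CPM of it in doxorubicin and 1.05 CPM in DMSO, and the effect differed between the labelled genotypes by 4.60 (SE 0.26, adjusted p = 1.06e-07). ARVCF, a p120-type catenin, rose to 41.3 CPM, against 8.35 CPM (log2 2.31, SE 0.27, adjusted p = 1.82e-05). Of the core linkers of classical cadherins to actin, beta-catenin and vinculin were lower in deleted than in intact cells and alpha-catenin did not pass. CTNNB1, beta-catenin, averaged 195 CPM in deleted and 331 CPM in intact cells in DMSO (log2 -0.76, SE 0.11, adjusted p = 8.17e-05). Its level with doxorubicin in deleted cells was 201 CPM against 195 CPM in DMSO (log2 0.05, 95% interval -0.18 to 0.27). VCL, vinculin, averaged 211 CPM in deleted and 414 CPM in intact cells in DMSO (log2 -0.97, SE 0.09, adjusted p = 2.56e-06), and fell to 169 CPM in treated deleted cells (log2 -0.32, SE 0.09, adjusted p = 0.0135). In all 11.1% of its exon length overlaps a gene on the other strand. CTNNA1, alpha-catenin, averaged 301 CPM in treated and 330 CPM in DMSO-treated deleted cells and did not pass (adjusted p = 0.208). Its DMSO level of 330 CPM in deleted cells against 290.2 CPM in intact cells did not pass either (log2 0.18, SE 0.07, adjusted p = 0.0666), though it did without the 2 libraries of high mitochondrial share.

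**Figure D4:**
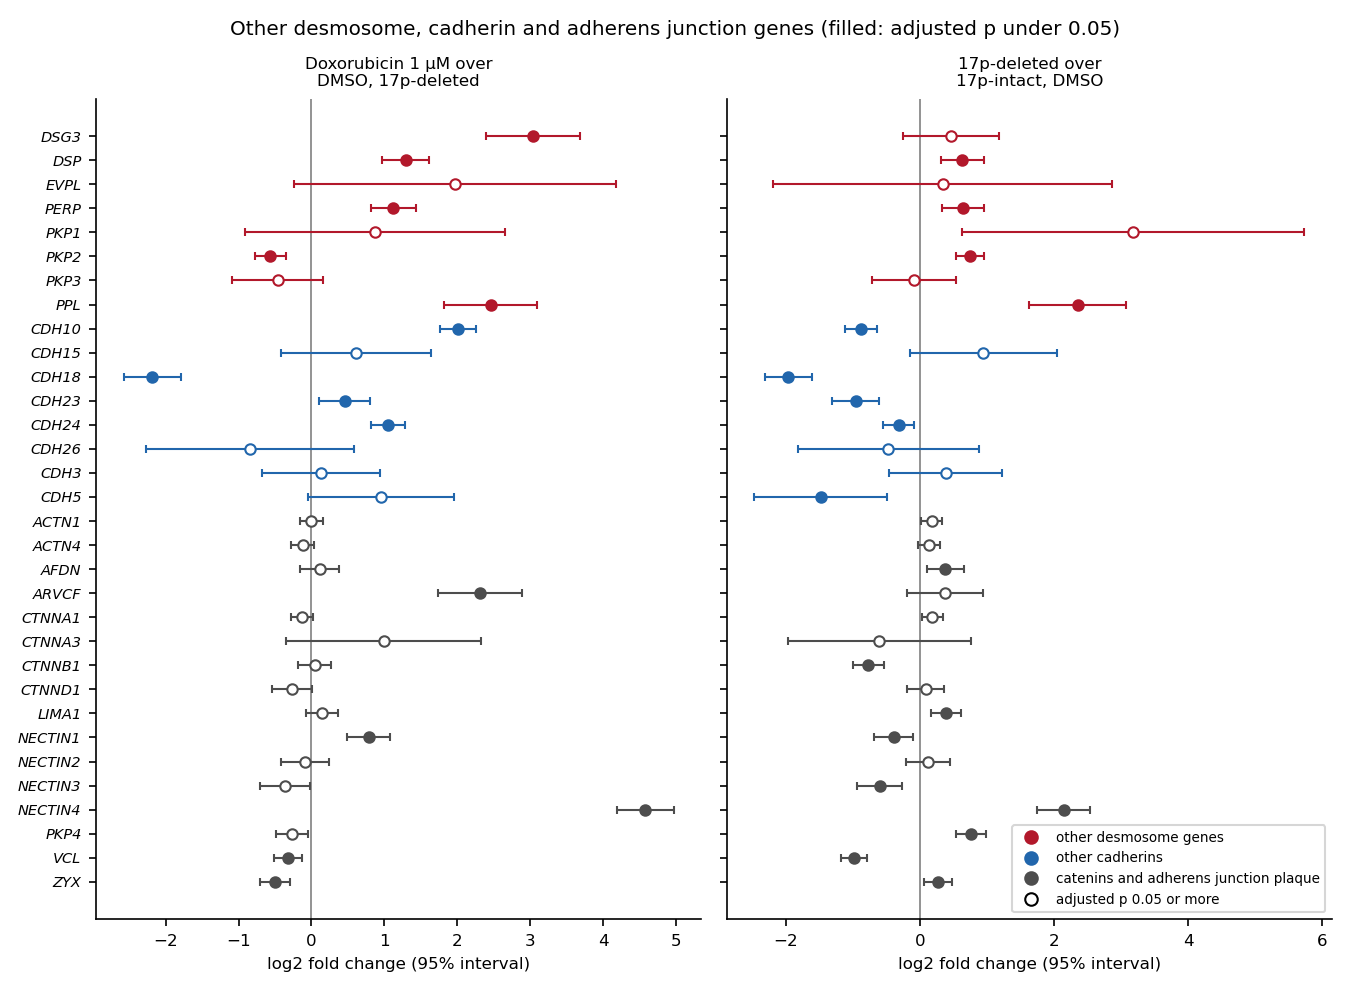
Log2 fold changes with 95% intervals (horizontal axis) of the tested desmosome, cadherin and adherens junction genes that are not members, for 1 µM doxorubicin over DMSO in deleted cells (left) and deleted over intact cells in DMSO (right), named as labelled. Filled points have an edgeR adjusted p under 0.05; NECTIN4 at 4.58 and DSG3 at 3.04 lie farthest right among filled points on the left, and CDH18 at -2.18 farthest left.

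Of the 8 repressors known to act on E-boxes of CDH1, 1 rose and 5 fell with 1 µM doxorubicin in deleted cells. Of all genes tested 17.5% rose and 13.1% fell there. Among the 5 that fell, TWIST1 lost its call under 5 settings, TCF3 and TWIST2 under 4 each and ZEB2 under 3. SNAI2 rose to 56.1 ± 6.87 CPM, against 11.3 ± 3.90 in DMSO (log2 2.31, SE 0.21, adjusted p = 1.80e-06), and averaged 17.4 and 19.7 CPM in treated and DMSO-treated intact cells. TCF4 fell to 9.48 CPM, against 23.8 CPM (log2 -1.33, SE 0.13, adjusted p = 3.26e-06). ZEB1 was the most abundant of those not passing and had 33.5 CPM in treated and 46.6 CPM in DMSO cells (log2 -0.48, SE 0.19, adjusted p = 0.0744), though it was called under 5 other settings. In DMSO 1 was higher and 3 lower in deleted cells, with TWIST2 at 9.37 against 16.3 CPM (log2 -0.79, SE 0.17, adjusted p = 2.16e-03). Of all genes tested 18.8% were higher and 16.2% lower in that comparison. CDH1 itself was at or below 0.441 CPM in all libraries.

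Of 18 epithelial junction and identity genes 14 were tested, and with 1 µM doxorubicin 4 rose and 2 fell in deleted cells. The share of all genes tested was 17.5% rising and 13.1% falling, and the shares in DMSO were 18.8% higher and 16.2% lower. The call of CLDN7 with 1 µM failed under 4 settings and that of ESRP2 in DMSO under 5. OCLN, the tight junction protein occludin, fell to 3.26 CPM, against 8.33 CPM (log2 -1.36, SE 0.12, adjusted p = 9.16e-07), and stood at 22.3 and 23.6 CPM in treated and DMSO-treated intact cells. F11R rose to 13.5 CPM, against 5.28 CPM (log2 1.35, SE 0.13, adjusted p = 2.19e-06), with 36.6% of its exon length shared with an overlapping gene, so its count is uncertain. In DMSO 3 were higher and 5 lower in deleted cells, with OCLN at 8.33 against 23.6 CPM (log2 -1.50, SE 0.11, adjusted p = 4.01e-07) and GRHL1, a grainyhead factor of epithelia, at 1.11 against 4.09 CPM (log2 -1.88, SE 0.18, adjusted p = 3.46e-06).

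Of 19 FAT, Dachsous, Flamingo and protocadherin genes 15 were tested, with 4 rising and 5 falling with 1 µM doxorubicin in deleted cells. Of all genes tested 17.5% rose and 13.1% fell there. Among those rising, CELSR1 lost its call under 16 settings, also without the 2 libraries of high mitochondrial share, and CELSR3 under 4. PCDH10, a neural protocadherin, fell to 9.83 CPM in treated deleted cells, against 29.4 CPM in DMSO (log2 -1.58, SE 0.09, adjusted p = 3.43e-08), and stood at 11.9 and 13.2 CPM in treated and DMSO-treated intact cells. Like CDH4 it was higher in deleted than in intact cells in DMSO (log2 1.16, SE 0.09, adjusted p = 8.65e-07) and lower in doxorubicin (log2 -0.27, SE 0.09, adjusted p = 0.0271), which failed under 4 settings. PCDH7 fell to 10.9 CPM, against 26.7 CPM (log2 -1.30, SE 0.13, adjusted p = 6.40e-06). In DMSO 8 were higher and 3 lower in deleted cells, while 18.8% of all genes tested were higher and 16.2% lower. The higher call of DCHS2, with 23 summed counts in deleted and 0 in intact DMSO libraries, failed under 14 settings. Those of FAT4 and CELSR2 failed under 3 and 2. FAT1, a giant cadherin and the most abundant of the list, rose to 457 CPM, against 309 CPM (log2 0.57, SE 0.15, adjusted p = 0.0129), and this failed under 1 setting.

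Of the 8 cadherin processing enzymes 1 fell with 1 µM doxorubicin in deleted cells, and 2 fell without the 2 libraries of high mitochondrial share. PSENEN fell to 6.10 CPM, against 10.3 CPM (log2 -0.76, SE 0.21, adjusted p = 0.0149), with 56.5% of its exon length shared with other genes and a failed call under 3 settings. ADAM10, the sheddase of N- and E-cadherin, had 199 CPM in treated and 204 CPM in DMSO cells and did not pass (adjusted p = 0.848). With 170 nM doxorubicin in intact cells 0 of the 77 genes of these lists passed by edgeR, 10 had an unadjusted p under 0.05 and DESeq2 called 1. Of all 21803 genes tested by edgeR, 13 passed there and 2504 had an unadjusted p under 0.05, and DESeq2 called 467. Over the 77 genes together, 28 were higher and 22 lower in deleted than in intact cells in doxorubicin, with 25.9% and 21.9% of all genes tested. In DMSO it was 23 higher and 20 lower, with 18.8% and 16.2% of all genes. With 1 µM doxorubicin in deleted cells 20 rose and 17 fell, with 17.5% and 13.1% of all genes.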

How the data were processed

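Per the submitters' processing notes, the tools used were bcl2fastq, STAR 2.7.9a, featureCounts and Subread 2.0.1, and the build was hg38. The authors deposited raw counts per gene, 1 column per library, as whole numbers with no normalization. Which annotation was counted, and whether strand was used, is not given in the sources used here, so genes with an overlapping or antisense partner are uncertain. Of 60660 identifiers 60419 had a symbol and 58385 a position in GENCODE 29 (hg38).

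After filterByExpr, counts were scaled by TMM (trimmed mean of M values) and fitted in 1 edgeR 4.0.16 quasi-likelihood model of the 4 groups (R 4.3.3). That left 21803 genes for 5 comparisons. p-values were adjusted by Benjamini-Hochberg over all genes tested, with a threshold of 0.05. The standard error is the log2 fold change over the root of the F statistic. CPM uses TMM-scaled library sizes, and CPM per kb divides by the union of exons. Counting intervals are exact 95% conditional intervals of the ratio of summed counts. They and the floors of 3 counts cover counting error only.

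The members and lists were chosen with earlier results of these data known. Every member is named. From each list the rule took, per comparison, up to 2 genes of lowest p among those called and the most abundant gene not called. Not all of these are printed, and others are given for their role, chosen after their values were seen. The result of 1 list gene is not reported here. The alternatives were RLE size factors, library totals, no filter, at least 1 CPM in at least 3 libraries, tests by limma-voom (limma 3.58.1) and DESeq2 1.42.0, only the groups compared, a replicate block, the 10 most abundant genes left out, removal of the GC trend (loess span 0.5, GC known for 98.0% of genes tested), leaving out the 2 libraries of highest mitochondrial share, leaving out each library, and the longest transcript as the length. The p53 motif and the counts per list without those 2 libraries were added after seeing the data. Pairs of libraries within a group differed beyond sampling noise (chi-square per degree of freedom 7.72 to 180), and none was taken as a duplicate.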

Additional observations from a re-analysis of the deposited data

Results flagged for a closer look

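Of the members, 5 had a doxorubicin effect that differed between cells labelled deleted and intact by the interaction term of the edgeR model. Of all genes tested 10.3% were called higher and 6.74% lower for that term. The difference of effects, deleted minus intact, was -2.14 on the log2 scale for CDH4 (SE 0.16), -1.19 for CDH6 (SE 0.29), -0.95 for CDH2 (SE 0.20) and -0.76 for CDH13 (SE 0.14). It was 3.41 for DSC3 (SE 0.51), whose value in intact cells rests on 42 counts in doxorubicin and 18 in DMSO. Deleted cells received 1 µM and intact cells 170 nM, so genotype and dose cannot be told apart in any of these values. The members were chosen with such differences in view, and the values are a description.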

How the results depend on the processing

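No called log2 fold change of a member changed sign over 11 alternatives and 12 fits that left out a library. Values not called did cross 0: CDH2 (-0.14 to 0.09), CDH11 (-0.14 to 0.09), DSC2 (-0.35 to 0.04) and DSG2 (-0.01 to 0.19) with 170 nM, DSC2 with 1 µM (-0.36 to 0.12), and DSC2 for the difference of effects (-0.18 to 0.37). Of 1133 values, called or not, 981 moved by less than the spread between replicates and 152 by more. Outside the 170 nM comparison and 1 value below, the totals over both directions of all genes, of members and of the lists combined stayed within 1.5 times the value reported. Single lists and directions moved more: genes lower for the difference of effects were 2911 with the GC trend removed, against 1470. Without the 2 libraries of high mitochondrial share catenin and plaque genes there were 4 higher and 2 lower, against 3 and 0, and E-box repressors 1 higher and 3 lower, against 1 and 1. In intact cells given 170 nM, 13 genes were called, against 48 with library totals, 196 with no filter, 65 with the 1 CPM filter, 467 by DESeq2, 25 by limma-voom, 0 with only the groups compared, 0 with the replicate block, 406 with the GC trend removed and 195 without the 2 libraries of high mitochondrial share. Leaving out each of the 12 libraries in turn gave 0 to 220, in every case over 1.5 times above or below 13. Members called there were 0, against 1 with library totals, 2 with no filter, 2 with the 1 CPM filter, 3 by DESeq2, 1 by limma-voom, 3 with the GC trend removed and 2 without those 2 libraries, and 0 to 2 leaving out each library, with 2 without replicate 2 of deleted DMSO cells and 1 without replicate 2 of intact treated cells. List genes called there were 0, against 1 by DESeq2, 1 with the GC trend removed and 1 (TJP3) without those 2 libraries. For the difference of the doxorubicin effects 22 list genes were called, against 36 with the GC trend removed. The cause was not tested. The replicate numbers did not pair the libraries: same-numbered libraries deviated with correlations from -0.645 to 0.268 over 18 pairs of libraries, and 4 of 12 libraries correlated best with their own number. With the replicate block the genes called were 6720 in DMSO, 9688 in doxorubicin, 5896 with 1 µM and 2913 for the difference, and 7, 9, 6 and 5 members. Among members, the call of CDH1 in DMSO was lost in 11 settings, CDH6 lost its difference of effects under limma-voom (adjusted p = 0.0564), and in intact cells CDH4 was gained in 9 settings, JUP in 6 and CDH6 in 2. Calls were also gained for the difference of effects of JUP in 6 settings, with 1 µM for DSG2 in 4, CDH11 in 3 and CDH1 in 1, in DMSO for CDH2 in 1 and in doxorubicin for CDH1 in 1. Depth limits CDH1 and, in deleted cells, CDH11, where some libraries hold 0 to 4 counts.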
